A study of Mus musculus with 6 samples.

Results

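The genes described here are the classical protein tyrosine phosphatases, taken as those whose symbol is Ptpn and a number (the non-receptor types) or Ptpr and 1 or 2 letters or digits (the receptor types). Of 22180 genes that a probe set of the deposited table named alone, 37 met this rule, 17 of them non-receptor and 20 receptor types. Each of the 37 had 1 probe set, so no choice among probe sets was needed. The series holds 6 Affymetrix arrays, hybridised with RNA of CD4+ CD8+ DP thymocytes, a stage of T-cell development in the thymus at which both coreceptors are carried. The 3 DP_WT arrays came from wild-type C57BL/6 mice and the 3 DP_Ets1_KO arrays from Ets1-/- mice, which lack the lymphoid transcription factor Ets1. All were 5 to 6 weeks old, litter mates served as the biological replicates, and all cells were crosslinked with formaldehyde and taken with magnetic beads against CD8 and then CD4. The labels do not say how many animals each array held or which part of Ets1 is deleted, so p-values measure the spread between these samples.

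Protein tyrosine phosphatases remove phosphate from tyrosines and thereby oppose, or in some cases permit, signalling by tyrosine kinases. In T cells the receptor-type phosphatase CD45 takes an inhibitory phosphate off the kinase Lck and so lets the T-cell receptor signal, while the cytoplasmic phosphatases SHP-1 and Lyp/PEP dampen the same pathway. Receptor types span the membrane and often carry extracellular adhesion-like domains, and non-receptor types are steered inside the cell by domains beside the catalytic one.

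On the 6 arrays the coreceptor genes that define the population had high signals, with log2 values of 10.87 to 11.15 for Cd4, 10.87 to 11.02 for Cd8a and 11.56 to 11.78 for Cd8b1. The probe set of the targeted gene Ets1 read 9.11, 9.32 and 9.17 in DP_WT and 9.27, 9.22 and 8.79 in DP_Ets1_KO, and since the labels do not place it relative to the deletion, it does not check them. DP_Ets1_KO replicate 1 stood apart, with a median of 3.66 over all probe sets against 4.19 to 4.33 on the other arrays. The median difference over all genes (Ets1-/- minus wild type, log2) was therefore -0.22, and -0.01 after each array was centred on its median. The other cell types whose markers differed on these arrays are described with their values below.

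Of the 37 phosphatases, 1 rose and 4 fell in Ets1-/- cells (limma, Benjamini-Hochberg adjusted p under 0.05 over all 22180 genes), which is 13.5% of them beside 1.86% of all genes (1.29% higher and 0.568% lower). The receptor type Ptpre fell 6.87-fold and the receptor type Ptprf 4.76-fold, the MAP kinase phosphatase Ptpn7 fell 3.08-fold, the PEST-family phosphatase Ptpn18 fell 2.54-fold, and the FERM-domain phosphatase Ptpn14 rose 2.97-fold. All 5 had a mean signal above 4.13, the median of all probe sets, as 21 of the 37 did. Among these 21 the called share was 23.8% and the share with non-overlapping groups 57.1%, beside 2.97% and 26.9% of all genes above that signal. The mean is over all 6 arrays, so a gene can pass this filter through the group where it is high. Ptpn13, counted as non-overlapping, did so (means of 3.93 in wild type and 4.70 in Ets1-/-), and the shares are therefore descriptive only. The phosphatases best known from T-cell receptor signalling, Ptprc, Ptpn6 and Ptpn22, did not pass the test, and their differences were 0.22, 0.01 and 0.23 on the log2 scale. Fewer members were called when any 1 array was left out. Omitting wild-type replicate 1 left 2, omitting replicate 2 or 3 left 1 each, and omitting the Ets1-/- replicates left 4 (replicate 1), 1 (replicate 2) and 2 (replicate 3), while 0.857% to 1.71% of all genes were called in these fits. Ptpre was called in all 6.

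**Figure D1:**
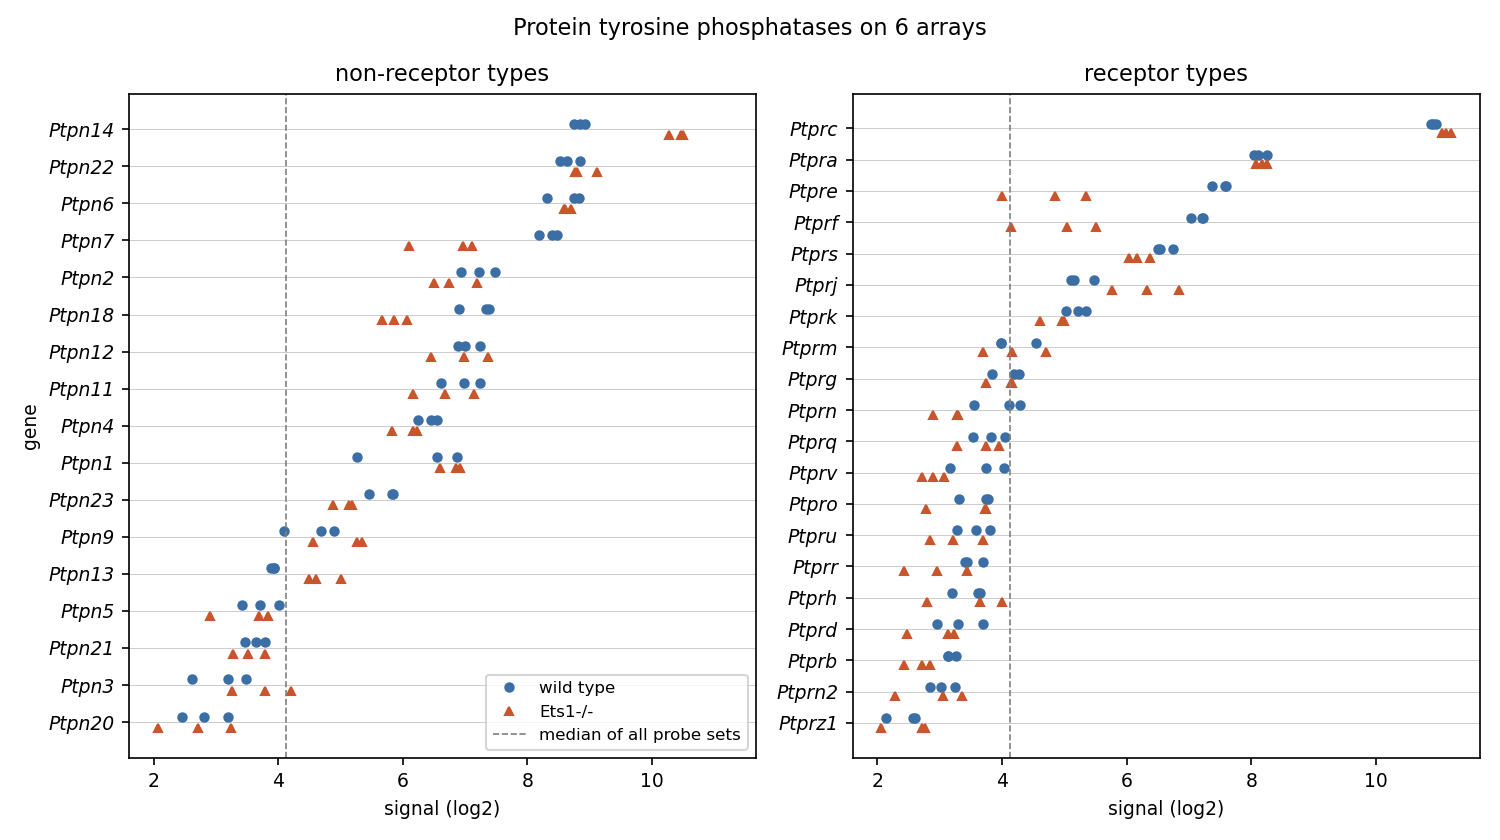
Log2 signal of each phosphatase on the 6 arrays, with non-receptor types on the left and receptor types on the right; circles are the 3 wild-type arrays, triangles the 3 Ets1-/- arrays, and the dashed line is the median of all probe sets (4.13). Ptpre, Ptprf, Ptpn7, Ptpn18 and Ptpn14 show a clear gap between circles and triangles, while 12 of the 20 receptor types and 4 of the 17 non-receptor types lie at or below the line.

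Ptpre encodes PTP epsilon, which exists as a membrane form with a short extracellular part and as a cytoplasmic form made from another start site. Its log2 signal was 7.58, 7.37 and 7.59 on the wild-type arrays and 4.00, 4.85 and 5.35 on the Ets1-/- arrays. The highest Ets1-/- value thus lay about 2 log2 units under the lowest wild-type value, and the Ets1-/- arrays varied more among themselves (SD 0.69 against 0.12, n = 3 each). The difference was -2.78 ± 0.35 (limma SE; 95% interval -3.60 to -1.96; adjusted p = 0.00827). It was the largest decrease in the family and came to -2.20 with a pseudocount of 16 added on the linear scale, which moderates changes near the low end of the signal (adjusted p = 0.000768). Its closest relative Ptpra, PTP alpha, an activator of Src-family kinases, read 8.26, 8.11 and 8.05 in wild type and 8.07, 8.26 and 8.17 in Ets1-/-, with overlapping groups and a difference of 0.03 (95% interval -0.46 to 0.52). Within each array the value of Ptpre less that of Ptpra was -0.68, -0.74 and -0.46 in wild type and -4.07, -3.41 and -2.82 in Ets1-/-, a shift of -2.81. Multiplying all signals of an array by the same factor leaves this shift as it is, but an offset that varies with signal level would not cancel. On Ets1-/- replicate 1 the median over all probe sets was low (3.66), while the Ptpra value of 8.07 lay within the wild-type range. The pair of Ptpre and Ptpra and the other within-array pairs were chosen after the values had been seen and carry no test.

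Ptprf encodes LAR, an adhesion-type receptor phosphatase with immunoglobulin-like and fibronectin-like repeats. It read 7.22, 7.21 and 7.03 in wild type and 4.15, 5.04 and 5.51 in Ets1-/-, so every Ets1-/- array lay below every wild-type array. The difference was -2.25 ± 0.35 (limma SE; 95% interval -3.07 to -1.43; adjusted p = 0.0211), or -1.76 with the pseudocount. The call ended without any 1 of the wild-type arrays or without Ets1-/- replicate 2 (adjusted p 0.0647 to 0.0776) and held without Ets1-/- replicate 1 or 3. The LAR relative Ptprs, PTP sigma, a receptor for proteoglycans, read 6.75, 6.50 and 6.53 in wild type and 6.03, 6.38 and 6.16 in Ets1-/-. Its groups did not overlap on the deposited scale but did once arrays were centred, and its difference of -0.40 (adjusted p = 0.504) did not pass the test. Ptprd, the remaining LAR relative, was dim at 3.31 ± 0.37 and 2.95 ± 0.41 (SD, n = 3 each). The value of Ptprf less that of Ptprs within an array was 0.47, 0.71 and 0.50 in wild type and -1.88, -1.34 and -0.65 in Ets1-/-.

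Ptpn7, also called HePTP, is a phosphatase of blood cells that binds the MAP kinases ERK and p38 and takes the phosphate off their activation loop. It read 8.47, 8.39 and 8.19 in wild type and 6.10, 6.97 and 7.11 in Ets1-/-, again with all Ets1-/- values below all wild-type values. The difference was -1.62 ± 0.31 (limma SE; 95% interval -2.34 to -0.91; adjusted p = 0.0482). This was the call nearest the threshold: it held without Ets1-/- replicate 1 (adjusted p = 0.0318) and ended without each of the other 5 arrays, with adjusted p up to 0.154. The other phosphatases with the same kind of MAP kinase-binding motif, Ptpn5 and Ptprr, are chiefly neuronal and were dim here. Ptpn5 was 3.71 ± 0.30 and 3.48 ± 0.50 and Ptprr was 3.52 ± 0.16 and 2.94 ± 0.50 in wild type and Ets1-/- (SD, n = 3 each), with overlapping groups.

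Ptpn18, a phosphatase of the PEST family that can bind the kinase Csk, read 7.39, 7.34 and 6.90 in wild type and 5.86, 5.67 and 6.07 in Ets1-/-, without overlap. The difference was -1.34 ± 0.25 (limma SE; 95% interval -1.91 to -0.77; adjusted p = 0.0408). The call ended when any 1 array was left out (adjusted p 0.0660 to 0.164) and when arrays were centred on their medians (-1.13, adjusted p = 0.0857), while the direction held in each of these fits. Its relatives showed no such gap. Ptpn22, known as PEP or Lyp, which works with Csk to shut off Lck and Zap70, read 8.63, 8.84 and 8.52 in wild type and 9.12, 8.76 and 8.80 in Ets1-/- (0.23; 95% interval -0.30 to 0.76). Ptpn12, or PTP-PEST, which acts on cytoskeletal adaptors, read 6.88 to 7.24 in wild type and 6.46, 6.98 and 7.36 in the 3 Ets1-/- arrays (-0.11; 95% interval -0.77 to 0.56). For both the groups overlapped.

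Ptpn14 was the member that rose. It carries a FERM domain, which binds membrane-linked proteins, and is known for holding the growth coactivator YAP out of the nucleus. The signal was 8.93, 8.74 and 8.85 in wild type and 10.27, 10.49 and 10.47 in Ets1-/-, so the groups were tight and lay well apart. The difference was 1.57 ± 0.21 (limma SE; 95% interval 1.08 to 2.06; adjusted p = 0.0109) and 1.54 with the pseudocount. Its call held without wild-type replicate 1 or Ets1-/- replicate 1 and ended narrowly without each of the other 4 arrays (adjusted p 0.0506 to 0.0626), with differences from 1.52 to 1.64 over all 6 fits. The nearest relative Ptpn21 was dim and did not pass the test (3.63 ± 0.15 and 3.52 ± 0.25, SD, n = 3 each; -0.11). Of the other FERM-domain members, Ptpn13, a large scaffold-like phosphatase, read 3.89, 3.94 and 3.94 in wild type and 4.61, 4.49 and 5.01 in Ets1-/-, without overlap (0.78, adjusted p = 0.190). Ptpn3 read 2.61, 3.49 and 3.19 against 3.78, 3.25 and 4.21, with overlap (0.65, adjusted p = 0.482). Ptpn4 read 6.24, 6.46 and 6.55 against 5.82, 6.17 and 6.22 (-0.34, adjusted p = 0.573); its groups lay apart as deposited and overlapped once arrays were centred.

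**Figure D2:**
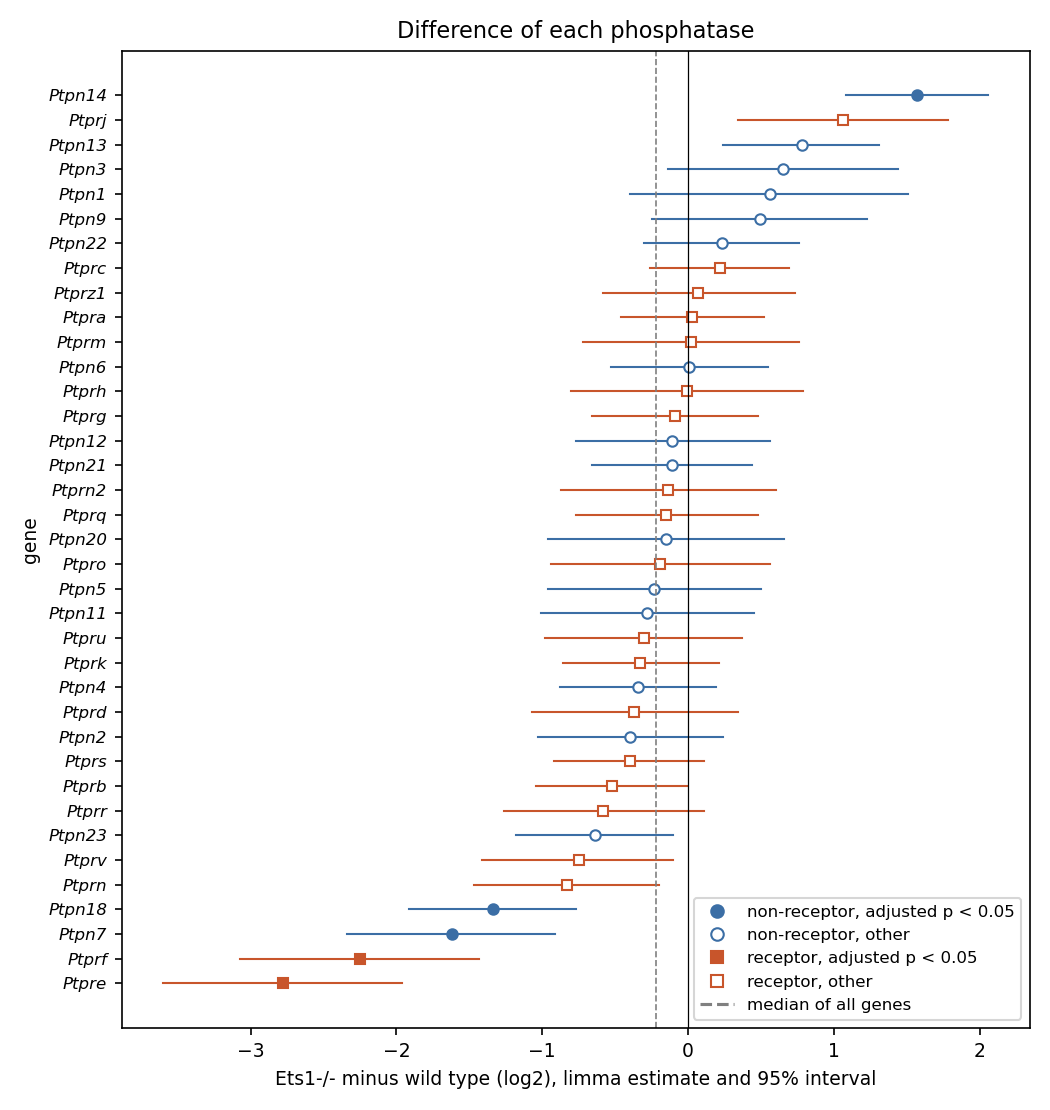
Difference of each of the 37 phosphatases, Ets1-/- minus wild type on the log2 scale, with its limma 95% interval; circles are non-receptor and squares receptor types, filled where the adjusted p was under 0.05, and the dashed line is the median of all genes (-0.22). Ptpre (-2.78) and Ptprf (-2.25) lie at the low end and Ptpn14 (1.57) at the high end, with most other members close to the dashed line.

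Because the mice lacked an ETS factor, the DNA before the start sites of the 5 called genes is shown, with every copy of the ETS core GGAA, on either strand (GGAA or TTCC), in capitals. Each window holds the 250 bases before a RefSeq start (GRCm38.p6), written along the gene's strand. Where a gene had several starts (3 for Ptpre, 2 for Ptpn7), the window with the most copies is given.
Ptpre, chr7:135605578-135605827, plus strand: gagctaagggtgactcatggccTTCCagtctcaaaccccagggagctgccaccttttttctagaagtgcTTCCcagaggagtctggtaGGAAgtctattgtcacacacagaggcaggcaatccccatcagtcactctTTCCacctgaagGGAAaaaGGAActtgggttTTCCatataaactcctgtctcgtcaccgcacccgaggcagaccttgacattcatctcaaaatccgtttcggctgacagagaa
Ptprf, chr4:118291398-118291647, minus strand: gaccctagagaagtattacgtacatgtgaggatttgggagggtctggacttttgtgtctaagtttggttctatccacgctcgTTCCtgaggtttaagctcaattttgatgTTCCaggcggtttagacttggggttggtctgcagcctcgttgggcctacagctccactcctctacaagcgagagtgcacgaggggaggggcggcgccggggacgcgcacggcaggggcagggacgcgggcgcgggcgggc
Ptpn7, chr1:135132450-135132699, plus strand: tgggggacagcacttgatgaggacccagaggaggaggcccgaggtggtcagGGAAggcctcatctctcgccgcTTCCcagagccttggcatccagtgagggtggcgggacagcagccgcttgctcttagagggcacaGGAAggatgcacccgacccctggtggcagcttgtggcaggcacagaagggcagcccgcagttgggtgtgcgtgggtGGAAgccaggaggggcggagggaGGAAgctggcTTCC
Ptpn18, chr1:34459496-34459745, plus strand: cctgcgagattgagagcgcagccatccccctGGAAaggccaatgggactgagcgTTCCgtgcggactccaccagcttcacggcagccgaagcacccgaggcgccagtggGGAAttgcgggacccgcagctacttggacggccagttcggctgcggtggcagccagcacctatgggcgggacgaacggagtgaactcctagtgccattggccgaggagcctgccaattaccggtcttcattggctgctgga
Ptpn14, chr1:189728018-189728267, plus strand: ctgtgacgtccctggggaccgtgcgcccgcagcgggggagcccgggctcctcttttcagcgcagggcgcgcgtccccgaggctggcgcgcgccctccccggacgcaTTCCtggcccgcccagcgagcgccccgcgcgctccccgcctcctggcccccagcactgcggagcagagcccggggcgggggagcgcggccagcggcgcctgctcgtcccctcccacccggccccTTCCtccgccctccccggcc
These windows held 7 copies of the core for Ptpre, 2 for Ptprf, 6 for Ptpn7, 3 for Ptpn18 and 2 for Ptpn14, beside a median of 3 over all 32851 such windows of the table. The other starts of Ptpre held 1 and 3 copies and the other start of Ptpn7 held 3. The core is short and was present in 93.4% of all windows, so its presence sets no member apart. A longer ETS form, CAGGAAG or its complement, was in 10.8% of all windows and in 1 of the 8 windows of the 5 called genes, the one shown for Ptpn7, where it begins 115 bases before the start. The form CGGAAG, which overlaps GGAA but not CAGGAAG, was in 13.6% of all windows and in 0 of these 8. Among the 31 members with an entry, 4 had CAGGAAG (Ptpn7, Ptpn6, Ptprc and Ptprg) and 5 had CGGAAG (Ptpn1, Ptpn11, Ptpn3, Ptpn6 and Ptprg), so the forms were found also in genes that did not pass the test. Ptpn2, Ptpn12, Ptprb, Ptprd, Ptprq and Ptprv had no entry. A match is a run of letters and not a shown binding site.

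CD45 and the SH2-domain phosphatases, which act on the T-cell receptor pathway, did not pass the test. Ptprc, which encodes CD45, read 10.91, 10.96 and 10.88 in wild type and 11.12, 11.21 and 11.06 in Ets1-/-. The groups did not overlap, also with arrays centred, but the difference of 0.22 (95% interval -0.26 to 0.69; adjusted p = 0.667) was small and passed only with an intensity trend and a robust prior in limma (adjusted p = 0.0241). Ptprcap, which is no member but encodes the small protein bound to CD45, read 8.95, 9.23 and 9.10 against 9.21, 9.18 and 9.16 (0.09, adjusted p = 0.864). Ptpn6, or SHP-1, which inhibitory receptors bring to the membrane through its SH2 domains, read 8.75, 8.82 and 8.31 in wild type and 8.61, 8.58 and 8.70 in Ets1-/-, with overlap (95% interval -0.53 to 0.55). Ptpn11, or SHP-2, its relative that mostly promotes Ras signalling, read 7.24, 6.98 and 6.61 against 6.17, 6.68 and 7.15, also with overlap (-0.28; 95% interval -1.01 to 0.45). For Ptpn6, Ptpra and Ptprc the intervals leave out a change of 1 on the log2 scale in either direction, and for Ptpn11 the lower bound lies just past it.

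Ptpn1 and Ptpn2, phosphatases of the endoplasmic reticulum and nucleus that act on JAK kinases and STAT factors, did not pass the test. Ptpn1, or PTP1B, read 6.87, 6.55 and 5.26 in wild type and 6.60, 6.92 and 6.85 in Ets1-/-; wild-type replicate 3 was low, and the difference was 0.56 with it and 0.07 without it. Ptpn2, or TC-PTP, read 7.48, 7.22 and 6.93 against 6.50, 6.74 and 7.19, with overlap (-0.40; adjusted p = 0.577). Ptpn23, an endosomal phosphatase-like protein, had non-overlapping groups as deposited at 5.71 ± 0.22 and 5.07 ± 0.17 (SD, n = 3 each; -0.64, adjusted p = 0.289), which overlapped after centring. Ptpn9, which has a lipid-binding Sec14 domain, was at 4.56 ± 0.41 and 5.06 ± 0.43 (0.49, adjusted p = 0.565). Ptpn20, known from testis, was the dimmest of the non-receptor types at 2.82 ± 0.36 and 2.67 ± 0.59 (SD, n = 3 each; -0.15).

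For the next group, 6 receptor types were put together by their fibronectin repeats, apart from groups such as LAR whose members carry them too. Among these 6, Ptprj was the only one above the median of all probe sets. It encodes CD148, which in B cells and macrophages shares with CD45 the task of activating Src-family kinases. The signal was 5.47, 5.10 and 5.16 in wild type and 5.77, 6.32 and 6.84 in Ets1-/-, with all Ets1-/- values above all wild-type values. The difference of 1.06 ± 0.31 (limma SE; 95% interval 0.34 to 1.78; adjusted p = 0.180) did not pass, but it did with quantile normalization (1.24, adjusted p = 0.0278), with arrays centred (1.27, adjusted p = 0.0341) and with array weights (1.33, adjusted p = 0.0238). The 5 dim members of this group (Ptprb, Ptprh, Ptpro, Ptprq and Ptprv) had differences from -0.75 to -0.01: Ptprv, known from bone, read 3.16, 3.75 and 4.03 against 2.90, 2.71 and 3.07, and Ptprb, the phosphatase of blood vessel endothelium, was at 3.18 ± 0.07 and 2.66 ± 0.22 (SD, n = 3 each; -0.52, adjusted p = 0.373). Ptprk, an adhesion receptor with a MAM domain that is known for its role in CD4 T-cell development, read 5.02, 5.22 and 5.34 against 4.61, 5.00 and 4.97 (-0.33, adjusted p = 0.585), and its groups overlapped after centring. Its relatives Ptprm and Ptpru had differences of 0.02 and -0.30. Ptprn and Ptprn2, proteins of secretory vesicles, had wild-type means of 3.98 and 3.04 and differences of -0.83 and -0.14, and Ptprg and Ptprz1, which carry a carbonic anhydrase-like domain, had differences of -0.09 and 0.07.

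The non-receptor and receptor types were set side by side. A mean above the median of all probe sets was found in 13 of 17 non-receptor and in 8 of 20 receptor types. Wild-type means ran from 2.82 to 8.84 for non-receptor and from 2.44 to 10.92 for receptor types, and signals of different probe sets also depend on the probes, so these counts describe the arrays and not the amounts of protein or RNA. The median of the 17 non-receptor values was 6.87, 6.55 and 6.55 on the wild-type arrays and 5.86, 6.17 and 6.22 on the Ets1-/- arrays, and that of the 20 receptor values was 3.87, 3.83 and 4.16 against 3.16, 3.87 and 3.85. The median difference was -0.11 over the non-receptor and -0.25 over the receptor types, beside -0.22 over all genes, and 0.10 and -0.04 with arrays centred. Of the non-receptor types 1 rose and 2 fell, which is 17.6% called, and of the receptor types 0 rose and 2 fell, which is 10.0%, beside 1.86% of all genes. Before adjustment, 5 of 17 and 6 of 20 had a limma p under 0.05, beside 13.2% of all genes. No test of a difference between the classes was made, and none is claimed.

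Wild-type and Ets1-/- values did not overlap for 15 of the 37 members, 11 of them lower and 4 higher in Ets1-/-. That is 40.5%, beside 21.9% of all genes (16.1% lower and 5.76% higher). Once arrays were centred on their medians the count was 12, with 6 lower (Ptpre, Ptprf, Ptpn7, Ptpn18, Ptprn and Ptprb) and 6 higher (Ptpn14, Ptpn13, Ptpn9, Ptprj, Ptprc and Ptprz1), beside 20.5% of all genes (9.3% lower and 11.2% higher). The share of lower members thus moved with the scaling, while the 5 called members lay apart on both scales.

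**Figure D3:**
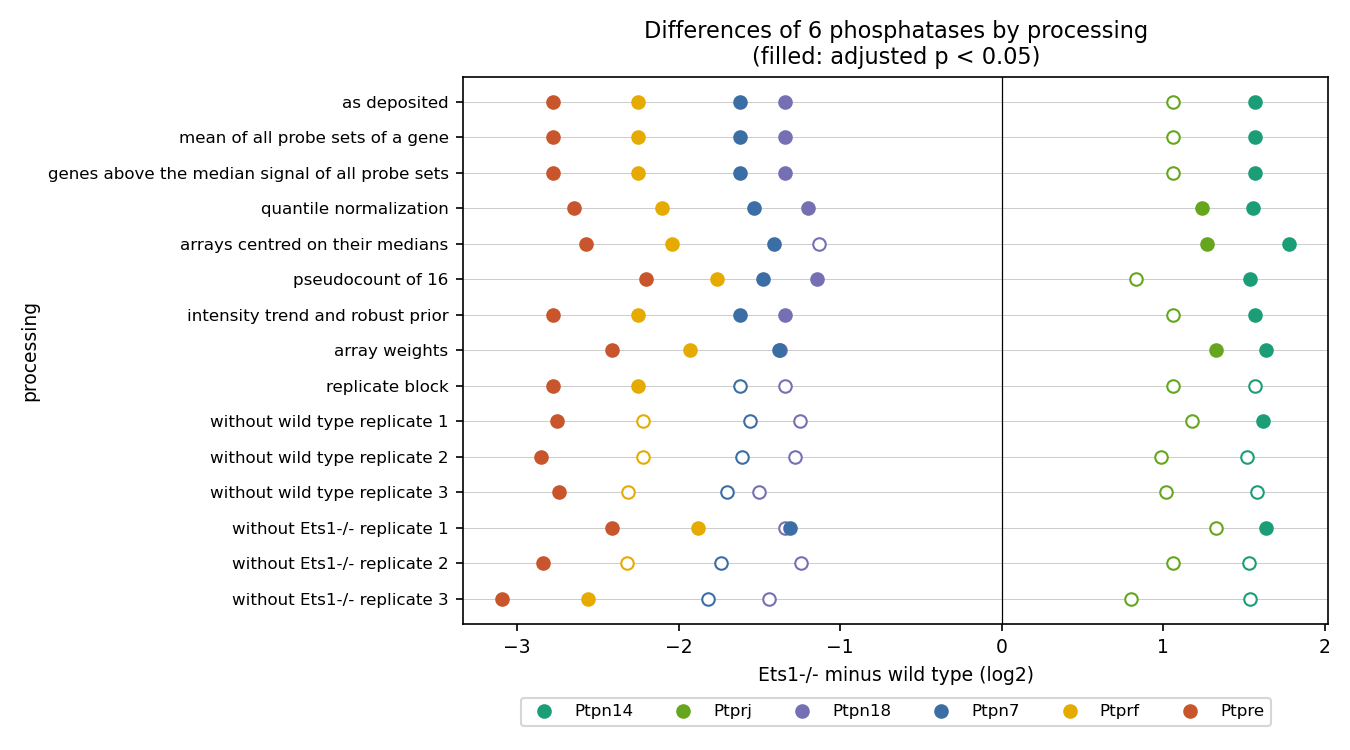
Difference of the 5 called phosphatases and of Ptprj (Ets1-/- minus wild type, log2) as deposited and under 14 alternative ways of processing, 6 of which leave out 1 array; a filled circle has an adjusted p under 0.05. The direction of each gene is the same in every row, Ptpre is filled in all of them, and Ptprj is filled in 3; with array weights Ptpn7 (-1.38) covers Ptpn18 (-1.37).

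The kinases and docking proteins that work with these phosphatases were taken from fixed lists, chosen with earlier results of these data known. Their counts and medians stand beside 1.86% of all genes called (1.29% higher and 0.568% lower) and a median difference of -0.22. Of 16 measured tyrosine kinases of lymphocytes, 1 rose and 0 fell as deposited (6.25%; median -0.17), while 1 was called lower with the filter on dim genes, quantile normalization, centring or the intensity trend and 2 with the pseudocount or array weights. The gene that rose was Blk, a Src-family kinase of B cells, which went from 0.79 ± 0.70 to 3.79 ± 1.00 (SD, n = 3 each; limma adjusted p = 0.0401), a call that was kept only when wild-type replicate 2 or Ets1-/- replicate 1 was the array left out. Fyn, a Src-family kinase on which CD45 acts, and Zap70, the kinase of the T-cell receptor, had differences of -0.91 and -1.37 without passing (adjusted p = 0.0957 and 0.127), and Syk, its relative in B and myeloid cells, was at 1.05 (adjusted p = 0.119). Of 23 inhibitory receptors and adaptors that bring SHP-1, SHP-2 or Csk to the membrane, 4 rose and 1 fell (21.7%; median 0.47). Those that rose were Sirpa by 2.97, Fcgr2b by 2.57, Siglecg from 2.57 to 4.82 and Lair1 from 3.58 to 5.58, receptors of myeloid or B cells, and Cd5, a restraint on T-cell receptor signals, fell by 1.90 (adjusted p = 0.00937). The wild-type signals of Siglecg and Lair1 lay in the dim range, and with the pseudocount their differences were 1.01 and 1.19. The number that rose was 2 without Ets1-/- replicate 2 or 3, 6 with quantile normalization or array weights, and 7 with centring, the pseudocount or the intensity trend. The number that fell was 0 without Ets1-/- replicate 2, when Cd5 was not called, and 2 in 6 of the other alternatives.

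Few genes of other phosphatase families were called. The counts here stand beside 1.86% of all genes called, 13.2% with an unadjusted limma p under 0.05 and a median difference of -0.22. Of 24 dual-specificity phosphatases, which act on MAP kinases among other substrates, 0 passed limma's test as deposited (4 at an unadjusted p under 0.05; median -0.23); Dusp2, Dusp10 and Dusp7 had the smallest p among those below 0, with -1.30, -0.77 and -1.27, and Dusp3 was at 1.68. With the pseudocount or array weights 2 of the 24 were called lower, and with the intensity trend and robust prior 3 lower and 1 higher. Of 26 other cysteine-based or tyrosine phosphatases, 1 fell (3.85%; median -0.20) and 1 to 3 were called lower over the alternatives that keep all arrays, with 1 called higher with the pseudocount or the intensity trend. The gene that fell was Eya2, a transcriptional coactivator with phosphatase activity, which read 6.19, 6.05 and 6.11 in wild type and 2.55, 2.88 and 1.43 in Ets1-/- (adjusted p = 0.00268). Its Ets1-/- values lay at the low end of the scale, so the size of the fall is uncertain: it was -3.83 as deposited and -2.01 with the pseudocount. The cell cycle phosphatases Cdc25c and Cdc25a had differences of -1.69 and -1.33 (adjusted p = 0.0931 and 0.152), and Ubash3a, a T-cell suppressor of receptor signalling, was at -0.81. Ssh2 went the other way, at 0.67 without overlap (limma adjusted p = 0.247). Over this list 10 of the 26 differences were above 0 and 16 below 0. Of 26 ligands and partners of receptor-type phosphatases, 1 rose (3.85%; median -0.26), which was Ntrk3, a neurotrophin receptor that binds PTP sigma, by 1.91 (adjusted p = 0.0243), and this count ran from 0 to 3 over the fits that left out 1 array and reached 3 with the pseudocount or the intensity trend and 5 with array weights. Cd22, a lectin of B cells that binds CD45, had a difference of 2.59 without passing (adjusted p = 0.0603). Cntn3, Lgals1 and Ppfia3, next in p on this list, had differences of -0.75, 0.69 and -0.99 without passing (limma adjusted p = 0.18, 0.208 and 0.383). The secreted ligand pleiotrophin, Ptn, was not among the 5 genes of the smallest p. It read 2.83 to 3.48 in wild type and 2.33, 8.19 and 7.73 in Ets1-/-, so replicate 1 stood apart from the other Ets1-/- arrays. Its difference was 2.98 (adjusted p = 0.417) with that array and 4.85 (adjusted p = 0.00362) without it. Whether these lists differ from the family in their share of calls was not tested.

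Markers of other cells moved on the same arrays. Their counts stand beside 1.86% of all genes called (1.29% higher and 0.568% lower) and 13.2% with an unadjusted limma p under 0.05. Of 16 measured macrophage and monocyte markers 13 rose and 0 fell, and their summed signal was 9.68 to 10.06 on the wild-type and 12.13 to 12.55 on the Ets1-/- arrays (log2). Sirpa, which is among those that rose, is also on the list of inhibitory receptors. Blk is both a B-cell marker and on the kinase list, and Cd22 is a B-cell marker and on the lists of inhibitory receptors and ligands. The values of these genes are therefore counted in several lists. Of 11 B-cell markers 5 rose (summed 6.58 to 7.06 against 8.70 to 9.78), of 12 dendritic-cell markers 6 rose (summed 9.11 to 9.33 against 11.78 to 11.87), and of 11 mature T-cell markers 7 rose (10.16 to 10.53 against 11.17 to 11.41). The dendritic-cell markers that rose were H2-Aa, H2-Ab1, H2-Eb1, Irf8, Bst2 and Itgax, which B cells or macrophages can also express, while Flt3, Zbtb46, Xcr1, Batf3, Ccr7 and Siglech had differences of 0.03, -0.38, -1.15, -0.25, -0.07 and 0.81 without passing. The mature T-cell markers that rose were Klf2, S1pr1, Ms4a4b, Gimap3, Gimap4, Cd44 and Itgb7. On the same list Cd28, Ccr7 and Gimap6 had differences of -0.01, -0.07 and -0.39 without passing. Il7r was higher on every Ets1-/- array than on any wild-type array but did not pass (limma adjusted p = 0.0663). Of 9 natural killer markers 0 passed limma's test (3 at an unadjusted p under 0.05, of which Prf1 was lower), with summed signals of 7.79 to 8.49 and 8.69 to 9.42. Differences were above 0 for 5 of the 9 and below 0 for 4. Gzma, the brightest of them, had means of 7.52 in wild type and 8.33 in Ets1-/-, with overlapping groups. Of 10 double-positive markers 1 rose (Ptcra) and 2 fell (Tdrd5 and Plxnd1), with sums of 13.68 to 13.75 and 13.43 to 13.55. Of 12 endothelial markers 0 passed limma's test (4 at an unadjusted p under 0.05), and their sum was 8.20 to 8.60 against 6.97 to 7.70. Pecam1, which is also on the list of inhibitory receptors, carried most of that sum (a mean of 7.68 in wild type and 6.42 in Ets1-/-, which did not pass); without it the sum was 6.94 to 7.08 against 6.02 to 6.70, over 11 markers of which 10 were dim in wild type. Thymic epithelium and fibroblast markers had 0 of 12 and 0 of 9 past limma's test (2 and 0 at an unadjusted p under 0.05), with sums of 7.83 to 7.95 against 7.41 to 8.54 and of 6.69 to 7.01 against 5.99 to 6.86. The array scale has no true 0; in Ets1-/-, 1 macrophage and 4 B-cell markers stayed at or below the median of all probe sets, as 4 and 9 did in wild type. In such bulk samples fewer cells of a type and less RNA per cell cannot be told apart, and the part of these cells in the phosphatase values, among them Ptprj and Ptpn6, which myeloid and B cells also express, was not tested.

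**Figure D4:**
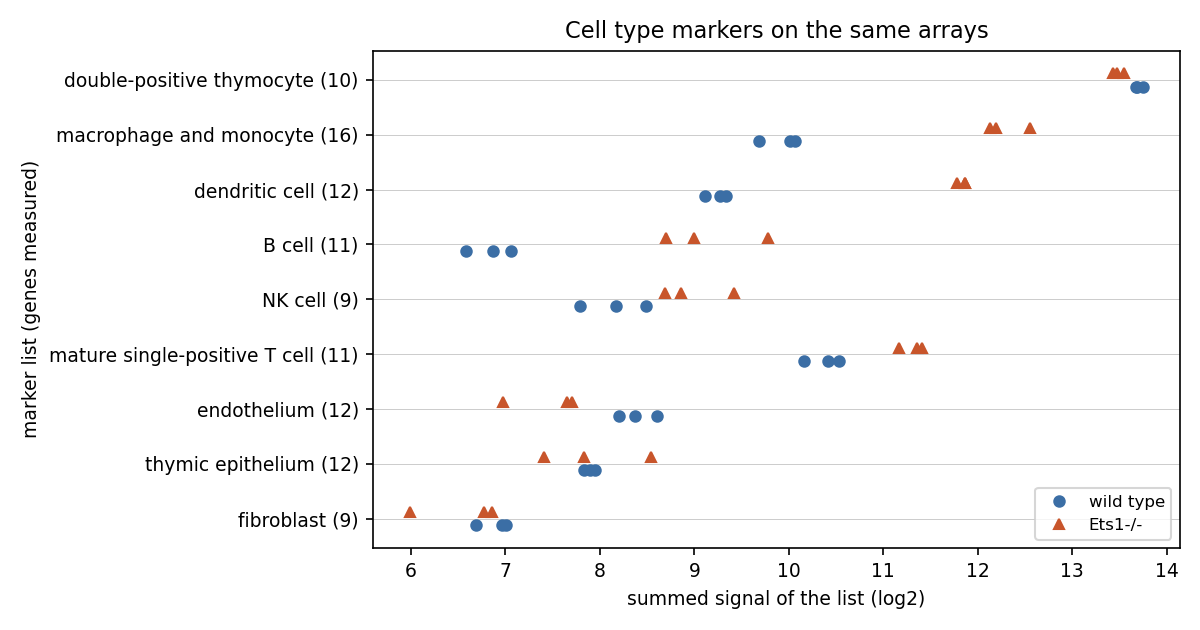
Summed signal (log2 of the sum of linear values) of each list of cell type markers on the 3 wild-type arrays (circles) and the 3 Ets1-/- arrays (triangles), with the number of genes measured in brackets. The macrophage, dendritic-cell, B-cell, natural killer and mature T-cell sums are higher on all Ets1-/- arrays. Of the 9 natural killer markers, 5 had differences above 0 and 4 below 0. The endothelial sum is lower on all of them, and the double-positive sum is slightly lower (13.43 to 13.55 against 13.68 to 13.75).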

How the data were processed

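The deposited table holds log2 values of 41345 probe sets on 6 arrays; that they are log2 follows from their range (-15.86 to 16.36). Per the submitters' processing notes the authors used affy, with no version; no source used here gives the background correction, normalization or build. Platform annotation named 23521 probe sets with 1 gene, 1814 with several and 16010 with none; 23328 of the first were matched by gene identifier to RefSeq (GRCm38.p6). The brightest probe set by the mean of 6 arrays stood for each of 22180 genes, with no filter. Ets1-/- minus wild type was fitted over all genes with limma 3.58.1 (R 4.3.3; lmFit, eBayes, two-sided, no covariate) and adjusted by Benjamini-Hochberg at 0.05; figures and tables used Python 3.11.15, pandas 2.3.3 and matplotlib 3.10.9. With 3 arrays against 3 an exact permutation test cannot go below 0.1. The number of arrays limits the precision.

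The members and lists were chosen with earlier results of these data known. Described array by array were members past the threshold, members with non-overlapping groups and a difference of at least 1, and a fixed set (Ptprc, Ptpn6, Ptpn22, Ptpn2, Ptpn11, Ptpn7, Ptpn12, Ptpn18, Ptpn1, Ptpn3, Ptpn4, Ptpra, Ptpre, Ptprj, Ptprs, Ptprf, Ptprk, Ptprv and Ptprcap). From each list, up to 5 genes of the smallest p were named. Ptn was named in addition, outside this rule. Alternatives were the mean of probe sets, a filter at the median signal, quantile normalization, median centring, a pseudocount of 16, array weights, a robust prior with an intensity trend, a replicate block and leaving out each array. On simulated data with 200 of 22180 genes changed, 45.2% of changes of 2 and 0.7% of changes of 1 (log2) were recovered, and 2.34% of calls were wrong.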

Additional observations from a re-analysis of the deposited data

How the results depend on the processing

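The direction of Ptpre, Ptprf, Ptpn7, Ptpn18 and Ptpn14 was the same under all 14 alternatives, and Ptpre kept its call in each of them. Non-receptor members called higher numbered 1 as deposited, 0 with the replicate block and 0 to 1 when any 1 array was left out; those called lower numbered 2, but 1 with arrays centred on their medians, 0 with the replicate block and 0 to 1 without any 1 array. Receptor members called higher numbered 0, but 1 with quantile normalization, with arrays centred on their medians and with array weights (Ptprj in each) and 1 with the intensity trend and robust prior (Ptprc); those called lower numbered 2, and 1 to 2 without any 1 array. Arrays with the same replicate number were not more alike than others. Their deviations from the group means over 11631 genes had correlations of -0.0797, -0.0761 and -0.155, beside -0.0418 to 0.13 for arrays of different numbers. Deviations within a group of 3 arrays sum to 0, so these correlations do not decide whether the samples were paired. With the replicate block 311 of the 22180 genes were called in place of 413, and of the members Ptpre (adjusted p = 0.0171) and Ptprf (0.0422), while Ptpn14, Ptpn7 and Ptpn18 lost their calls (0.0501, 0.0914 and 0.113). Over all genes 745 were called with arrays centred on their medians, 798 with quantile normalization, 907 with the pseudocount, 1172 with the intensity trend, 1019 with array weights and 190 to 379 without any 1 array; the cause of these shifts was not tested. The endothelial sum without Pecam1 was added after seeing the data.

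Differences near 0 changed sign without a call: Ptpn12 was at 0.04 with quantile normalization, 0.11 with arrays centred, 0.07 with array weights and 0.13 without Ets1-/- replicate 1 (from -0.32 to 0.13 when any 1 array was left out). Ptpn6 was at -0.05 with array weights, -0.15 without wild-type replicate 3 and -0.03 without Ets1-/- replicate 3 (from -0.15 to 0.10). Ptpra was at -0.02 without wild-type replicate 3 or Ets1-/- replicate 2 (from -0.02 to 0.09). The 16 members at or below the median signal have values near the low end of the scale, and changes of 1 on the log2 scale were rarely recovered in simulated data, so members that missed the test may still differ.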
